A study of Mus musculus with 17 samples.

Results

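The unfolded protein response and the integrated stress response were followed through 10 genes in mouse peritoneal macrophages (PMs) given the HIV protein Tat. The members were the rows of the expression table whose symbol was Hspa5, Hsp90b1, Xbp1, Ddit3, Atf4, Atf6, Ern1, Eif2ak3, Ppp1r15a or Trib3. All 10 symbols were found once among 21683 rows, and all 10 were among the 10451 genes that passed the filter on low values (at least 1 TPM, a length-corrected measure of transcript abundance, in at least 5 libraries). RNA-Seq was performed on 17 libraries of thioglycollate-elicited PMs in 3 groups. PMs of IKKβF/F mice were given PBS (F/F PBS, n = 6 libraries) or 100 nM Tat (F/F Tat, n = 6), and PMs of IKKβΔMye mice were given 100 nM Tat (ΔMye Tat, n = 5), each for 12 h after 4 h of attachment. All mice were males on a C57BL/6 background with loxP-flanked Ikbkb alleles, and the labels give their age as 8 weeks. ΔMye mice carried LysM-Cre as a heterozygous knock-in, which deletes the floxed alleles in myeloid cells. The labels place isolation 3 days after thioglycollate and the methods place it 4 days after. IKKβΔMye PMs given PBS were not analysed here, so what separates the Tat groups may have been there before Tat, and whether the response itself depended on genotype could not be tested. The study calls its RNA-Seq libraries biological replicates of mice, while the labels do not name the mouse of a library, and whether PBS and Tat cultures came from the same mice is not stated.

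The unfolded protein response senses misfolded protein in the endoplasmic reticulum (ER) through PERK (Eif2ak3), IRE1α (Ern1) and ATF6, which the chaperone BiP (Hspa5) holds inactive in resting cells. PERK phosphorylates eIF2α, which slows translation in general and favours translation of Atf4. GCN2, PKR and HRI act on the same site, and the common output is the integrated stress response. IRE1α splices Xbp1 mRNA, ATF6 is cleaved in the Golgi apparatus, and both give transcription factors that act on chaperone genes. In macrophages, ER stress is known for its part in inflammatory signalling and in the death of lipid-loaded cells in plaques. Atf4 is controlled mainly at translation, Xbp1 at splicing and ATF6 at cleavage, none of which gene-level TPM measures.

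TPM express each gene as a share of its library, so members are given both as deposited and after a scaling that removes the shift of the median gene. Differences are log2 differences of TPM + 0.1 with their standard error (SE), tested with limma over 10451 genes and called at an adjusted p under 0.01. The median tested gene differed by -0.65 with Tat in F/F PMs, by 0.22 in ΔMye Tat against F/F Tat and by -0.43 in ΔMye Tat against F/F PBS. After median-ratio scaling of the libraries these medians were -0.03, 0.01 and -0.02, and "scaled" below refers to that setting. The listed TPM of a library summed to between 889318 and 903576, and 9260 to 10378 genes reached 1 TPM. Read counts were not used here, so depth is unknown. Ikbkb averaged 26.8 ± 2.0 (SD, n = 6) TPM in F/F PBS, 23.2 ± 1.4 (SD, n = 6) in F/F Tat and 16.4 ± 2.6 (SD, n = 5) in ΔMye Tat, and was below F/F Tat in ΔMye Tat by a log2 difference of -0.51 (limma adjusted p = 4.51e-05). All 8 macrophage markers examined were above 1 TPM, with Cd68 at 2596, 1744 and 1886 TPM on average, while their sum was 25796 to 26807 TPM in F/F PBS, 10310 to 10890 in F/F Tat and 8019 to 8344 in ΔMye Tat. Most of that sum was Lyz2, the gene that carries LysM-Cre (22382, 6993 and 4333 TPM). Like Lyz2 and Cd68, Csf1r (381, 64.0 and 104 TPM) and Itgam (178, 106 and 116 TPM) averaged less in both Tat groups than in F/F PBS. Adgre1 averaged 499, 441 and 512 TPM. In contrast, Cd14 (203, 842 and 1009 TPM), Fcgr1 (113, 300.1 and 164 TPM) and Mertk (15.4, 20.1 and 24.3 TPM) averaged more in both Tat groups than in F/F PBS. Among markers of other cells, Cd3g, S100a9 and Flt3 stayed at or below an average of 1.98 TPM in every group. Il7r (152, 149 and 152 TPM), S100a8 (53.8, 68.6 and 91.4 TPM), Sdc1 (44.1, 12.4 and 36.7 TPM) and Ccr7 (9.01, 42.3 and 23.4 TPM) were higher. The part of these other cells in the results was not tested. Library 23 (ΔMye Tat) stood apart in its scaling factor, at -0.15 on the log2 scale against -0.06 to 0.01 in the other ΔMye Tat libraries. In bulk RNA, fewer cells of a type and less RNA per cell cannot be told apart.

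With Tat, the ER chaperone Hspa5 rose the most of the members, Ppp1r15a and Xbp1 rose less, and the sensors (Atf6, Ern1, Eif2ak3), Ddit3 and Trib3 fell on both scales. Relative to F/F PBS, 3 of 10 members were higher in F/F Tat (Hspa5, Xbp1 and Ppp1r15a, against 17% of all tested genes higher) and 7 were lower (against 67.6%). After scaling the split was 5 higher and 5 lower, against 37.3% and 38% of tested genes, since Hsp90b1 and Atf4 turned from lower to higher. Past a 3-fold change, 1 member was lower (Eif2ak3, against 19.4% of tested genes), and by limma 0 were higher at either an adjusted p under 0.01 or an unadjusted p under 0.05 (against 5.21%). All 10 members had groups that did not overlap, as did 77.6% of tested genes. The median member differed by -0.77, against -0.65 over all tested genes, and these shares are read against that background.

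In ΔMye Tat against F/F Tat, limma called the chaperones Hspa5 and Hsp90b1 and the transcription factor Xbp1 lower in ΔMye Tat as deposited, scaled and after quantile normalization (3 of 10, against 8.87% of tested genes lower as deposited and 19.4% scaled). Ppp1r15a and Trib3 passed in neither direction. Another 5 members were higher as deposited (Ddit3, Atf4, Atf6, Ern1 and Eif2ak3, against 38.8% higher), but scaled the limma count was 0 (against 15.9%), with 1 at an unadjusted p under 0.05, and after quantile normalization it was 1 (Atf4). An exact Wilcoxon test called 0 higher and 0 lower, with 5 and 3 at an unadjusted p under 0.05. Members whose groups did not overlap get the smallest p these group sizes allow, and their Wilcoxon adjusted p was 0.0119. The test could therefore call no member at an adjusted p under 0.01, and its counts of 0 say nothing of the members. Shares of all tested genes were not computed for the Wilcoxon test or after quantile normalization, so those counts have no background here. The limma count of 5 higher as deposited became 3 when F/F Tat library 8 or 9 or ΔMye Tat library 20, 21 or 22 was left out. Ddit3 alone lost its call without F/F Tat library 7 or 11. Eif2ak3 alone lost its call without F/F PBS library 4 or 6, F/F Tat library 10 or ΔMye Tat library 19. Without ΔMye Tat library 23, Ddit3 lost its call and Trib3 gained a call. By limma 0 members passed 3-fold in either direction at an adjusted p under 0.01 or an unadjusted p under 0.05 (against 0.44% of tested genes higher and 0.316% lower), and the groups of 4 members did not overlap (Hspa5, Hsp90b1, Xbp1 and Atf4, against 36.6%). The median member differed by 0.13, against 0.22 over all tested genes, and scaled by -0.09 against 0.01.

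Against F/F PBS, 2 members were higher in ΔMye Tat (Hspa5 and Ppp1r15a, against 17.5% of tested genes) and 8 were lower (against 58.8%). Scaled, 4 were higher (adding Xbp1 and Atf4) and 6 lower, against 33.8% and 33.9% of tested genes. For 9 members the groups did not overlap (all but Xbp1, against 67.7%). The 3 comparisons share libraries, so each one's values are set side by side and are not independent.

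**Figure D1:**
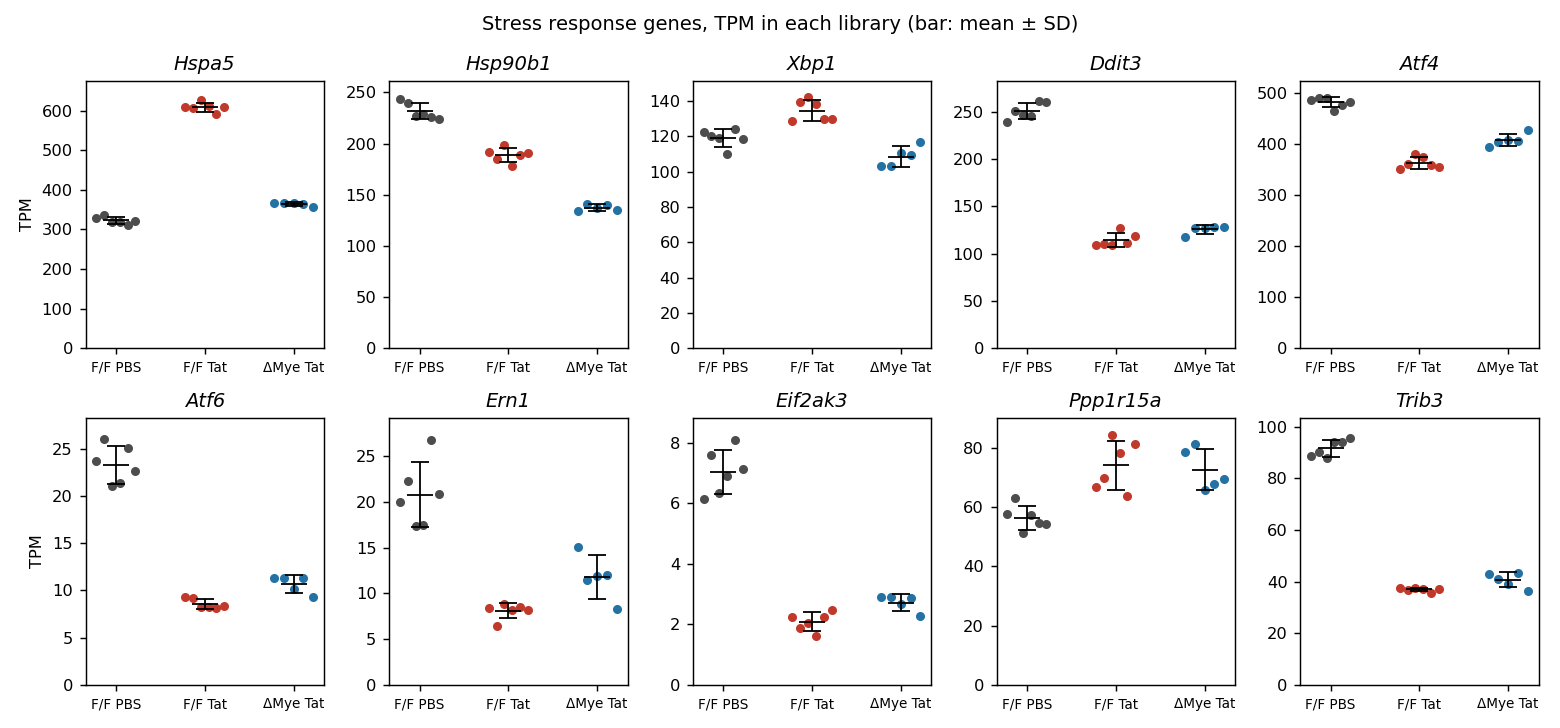
TPM of the 10 members (y axis, from 0) in each library of F/F PBS (n = 6), F/F Tat (n = 6) and ΔMye Tat (n = 5); points are libraries and bars the mean ± SD. Hspa5 stands at 592 to 627 TPM in F/F Tat and at most 367 TPM in both other groups, while Atf6, Ern1, Eif2ak3, Ddit3 and Trib3 are highest in F/F PBS.

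In F/F PBS the members were ordered by mean TPM, which is corrected for transcript length, as Atf4, Hspa5, Ddit3, Hsp90b1, Xbp1, Trib3, Ppp1r15a, Atf6, Ern1 and Eif2ak3. The ranges overlapped for the neighbours Ddit3 and Hsp90b1 (in this order in 5 of 6 libraries) and for Atf6 and Ern1 (5 of 6). In F/F Tat the order was Hspa5, Atf4, Hsp90b1, Xbp1, Ddit3, Ppp1r15a, Trib3, Atf6, Ern1 and Eif2ak3, with overlap between Atf6 and Ern1 alone (4 of 6 libraries). In ΔMye Tat it was Atf4, Hspa5, Hsp90b1, Ddit3, Xbp1, Ppp1r15a, Trib3, Ern1, Atf6 and Eif2ak3, again with overlap for Ern1 and Atf6 alone (4 of 5 libraries). Hspa5 thus led in the F/F Tat libraries and Atf4 in all others, and the 3 sensors were lowest in all groups.

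Chaperone promoters carry the ER stress response element (ERSE), a CCAAT box, 9 bases and CCACG, to which NF-Y and cleaved ATF6 or XBP1 bind. Its letters were searched on both strands of the 250 bases before each RefSeq start site (GRCm38.p6), a window found for 9 of 10 members (not Atf6). Only exact matches were counted, and near matches were not sought. The exact element occurred in 37 of 32544 promoters (0.114%) and in 2 members, Hspa5 once and Hsp90b1 on both strands. The windows below are shown because these members, and other ER genes with the motif, diverged between the groups; capitals mark the CCAAT box and CCACG, each window is written 5′ to 3′ along the strand on which the motif reads, and positions count back from the start site.
Hspa5, -65 to -47, chr2:34772020-34772048, plus strand: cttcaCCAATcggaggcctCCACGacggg
Hsp90b1, -107 to -89, chr10:86705528-86705556, plus strand (the gene is on the minus strand): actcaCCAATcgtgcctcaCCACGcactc
Hsp90b1, -212 to -194, chr10:86705633-86705661, minus strand: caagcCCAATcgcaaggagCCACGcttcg
Syvn1, -44 to -26, chr19:6046527-6046555, plus strand: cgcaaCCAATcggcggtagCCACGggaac
Pdia6, -98 to -80, chr12:17266486-17266514, plus strand: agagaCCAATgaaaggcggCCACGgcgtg
Dnajc3, -105 to -87, chr14:118937822-118937850, plus strand: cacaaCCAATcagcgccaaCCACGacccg
Ero1b (listed in the expression table as Ero1lb), -201 to -183, chr13:12565677-12565705, minus strand: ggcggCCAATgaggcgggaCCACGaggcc
The Hspa5 window lies before the RefSeq start and inside the longer gene of the GENCODE annotation. Single CCACG and CCAAT boxes are common, in 28.6% and 33.8% of promoters, and a match is a description of the sequence only.

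Hspa5 (chr2:34771970-34777547, plus strand) encodes BiP, the main Hsp70 chaperone of the ER lumen. Its TPM were 312 to 335 in F/F PBS (median 320.5) and 592 to 627 in F/F Tat (median 609.9). In ΔMye Tat libraries 19 to 23 they were 366, 367, 367, 365 and 357. The F/F Tat libraries were all far above the rest, and ΔMye Tat lay close above F/F PBS with no overlap. F/F Tat exceeded F/F PBS 1.89-fold (log2 difference 0.92, SE 0.02, limma adjusted p = 2.58e-18, scaled difference 1.55), which placed Hspa5 at percentile 91.0 of tested genes. ΔMye Tat was at 59.8% of F/F Tat (log2 difference -0.74, SE 0.02, limma adjusted p = 7.27e-15, scaled difference -0.96), at percentile 2.62. Against F/F PBS, ΔMye Tat was higher by a log2 difference of 0.18 as deposited (limma adjusted p = 9.95e-07) and 0.59 scaled, but lower by -0.09 after quantile normalization (limma adjusted p = 0.00332).

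Hsp90b1 (chr10:86690209-86705509, minus strand) encodes GRP94, the Hsp90 chaperone of the ER, which folds Toll-like receptors and integrins. Its TPM were 224 to 243 in F/F PBS (median 228) and 178 to 198 in F/F Tat (median 189.8). The ΔMye Tat libraries gave 134, 141, 137, 140.1 and 135. The 3 groups formed separate steps, F/F PBS highest and ΔMye Tat lowest. The Tat difference was -0.29 as deposited (SE 0.03, limma adjusted p = 1.75e-08) and turned to 0.34 when scaled (limma adjusted p = 2.12e-08), while quantile normalization gave -0.45, so its direction depends on the scaling. ΔMye Tat was at 72.8% of F/F Tat, a log2 difference of -0.46 (SE 0.03, limma adjusted p = 5.16e-10, scaled difference -0.68). An opposite-strand pseudogene, 1810014B01Rik, covers 10.3% of its exonic bases, and 4.09% of its 31-base sequences also occur in other genes, so a small part of its signal may be shared.

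Within a library the ratio of Hsp90b1 to Hspa5 does not depend on scaling. It was 0.697 to 0.738 in F/F PBS (median 0.716), 0.291 to 0.319 in F/F Tat (median 0.314) and 0.367 to 0.385 in ΔMye Tat (median 0.377). Hsp90b1 was thus low relative to Hspa5 in all Tat libraries, lowest in those of F/F PMs, and no group overlapped another. The log2 ratio differed by -1.21 with Tat in F/F PMs and by 0.28 between ΔMye Tat and F/F Tat (exact two-sided permutation p = 0.00216 for each, the smallest these group sizes allow; adjusted over 24 ratio tests, 0.00433).

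Xbp1 (chr11:5520659-5525893, plus strand) encodes the transcription factor made after IRE1α splicing. Spliced and unspliced mRNA are counted together here. Its TPM were 110.0 to 124 in F/F PBS (median 119.5) and 129 to 142 in F/F Tat (median 134). The ΔMye Tat libraries stood at 103, 103, 110.3, 109.6 and 117. F/F Tat was above both other groups without overlap, and ΔMye Tat overlapped F/F PBS. The Tat difference was 0.18 (SE 0.04, limma adjusted p = 0.000291, scaled difference 0.81), and ΔMye Tat was lower than F/F Tat by -0.31 (SE 0.04, limma adjusted p = 3.06e-06, scaled difference -0.53). Against F/F PBS, ΔMye Tat differed by -0.13 as deposited (limma adjusted p = 0.0058) and by 0.28 scaled. Xbp1 is also high in plasma cells, whose 5 markers summed to 46.6 to 53.7 TPM in F/F PBS, 17.7 to 19.7 in F/F Tat and 39.6 to 42.0 in ΔMye Tat. Most of that sum was Sdc1, while Tnfrsf17 was listed at 0 in all libraries. Irf4 (1.71, 3.41 and 2.26 TPM in F/F PBS, F/F Tat and ΔMye Tat) and Jchain (0.123, 0.228 and 0.113 TPM) were highest in F/F Tat like Xbp1, and Mzb1 (4.51, 2.44 and 1.64 TPM) was highest in F/F PBS. The part of these cells in the Xbp1 values was not tested.

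Ern1 (chr11:106394650-106487852, minus strand) encodes IRE1α, the kinase and RNase that cuts Xbp1. Its TPM were 17.4 to 26.8 in F/F PBS (median 20.5) and 6.43 to 8.82 in F/F Tat (median 8.35). In ΔMye Tat they were 15.1, 11.4, 12.0, 12.0 and 8.29, so that library 23 fell within the F/F Tat range and the other libraries lay above it. F/F Tat was at 39.0% of F/F PBS (log2 difference -1.34, SE 0.12, limma adjusted p = 4.72e-09, scaled difference -0.71). ΔMye Tat was higher than F/F Tat by 0.51 (SE 0.13, limma adjusted p = 0.00251) but scaled the difference of 0.29 missed the threshold (adjusted p = 0.0415).

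Xbp1 and the enzyme that splices it moved in opposite directions with Tat. Their ratio was 4.63 to 6.83 in F/F PBS (median 5.88), 15.2 to 21.7 in F/F Tat (median 15.9) and 6.84 to 14.1 in ΔMye Tat (median 9.14). No group overlapped another, and ΔMye Tat lay between the others. The log2 ratio differed by 1.52 with Tat in F/F PMs and by -0.82 between ΔMye Tat and F/F Tat (exact permutation p = 0.00216, adjusted 0.00433 for each).

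Eif2ak3 (chr6:70844515-70905245, plus strand) encodes PERK, the ER-membrane eIF2α kinase, and was the lowest member. Its TPM were 6.15 to 8.09 in F/F PBS (median 7.02) and 1.61 to 2.49 in F/F Tat (median 2.14). In ΔMye Tat they were 2.89, 2.89, 2.67, 2.88 and 2.26. F/F PBS was far above both Tat groups, which overlapped through library 23. The Tat difference was -1.71 (SE 0.11, limma adjusted p = 1.08e-11), past 3-fold as deposited, and -1.09 scaled. ΔMye Tat against F/F Tat gave 0.37 (SE 0.11, limma adjusted p = 0.00789) and scaled 0.16 (adjusted p = 0.183). That call was lost without any one of F/F PBS libraries 4 and 6, F/F Tat libraries 8, 9 and 10 and ΔMye Tat libraries 19 to 22, with differences of 0.31 to 0.38. Whether the counting used strand is not given in the sources used here, and Gm43292 on the opposite strand covers 8.05% of its exonic bases.

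Atf6 (chr1:170704674-170867771, minus strand) encodes the ER-membrane precursor that is cleaved to a transcription factor. Its TPM were 20.99 to 26.0 in F/F PBS (median 23.1) and 8.08 to 9.30 in F/F Tat (median 8.33). In ΔMye Tat they were 11.3, 11.3, 10.2, 11.3 and 9.24. F/F PBS stood clear of the other groups, and library 23 alone of ΔMye Tat fell within the F/F Tat range. F/F Tat was at 36.9% of F/F PBS (log2 difference -1.43, SE 0.07, limma adjusted p = 1.52e-13, scaled difference -0.80), and ΔMye Tat exceeded F/F Tat by 0.31 (SE 0.07, limma adjusted p = 0.00117, scaled difference 0.09, adjusted p = 0.201).

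The sensors were also compared with each other within libraries. The ratio of Ern1 to Atf6 was 0.819 to 1.07 in F/F PBS (median 0.851), 0.697 to 1.07 in F/F Tat (median 0.989) and 0.897 to 1.33 in ΔMye Tat (median 1.06). All these ranges overlapped, and the Tat difference in the log2 ratio was 0.09 (exact permutation p = 0.465, adjusted 0.508). Against F/F PBS, ΔMye Tat was higher by 0.29 (exact permutation p = 0.0325, adjusted 0.0433), a call lost with a pseudocount of 1 (0.27, adjusted p = 0.0554) and without F/F PBS library 1, 2, 3, 4 or 6 or ΔMye Tat library 19, 21 or 22 (0.22 to 0.30, adjusted p of 0.056 to 0.0952). The ratio of Ern1 to Eif2ak3 rose from a median of 2.93 to 3.79 with Tat (log2 difference 0.37, exact permutation p = 0.00649, adjusted 0.012) and stood at 4.16 in ΔMye Tat, a difference of 0.14 from F/F Tat (exact permutation p = 0.31, adjusted 0.371). With a pseudocount of 1 the Tat difference became 0.13 (adjusted p = 0.248). The ratio of Atf6 to Eif2ak3 had medians of 3.24, 4.09 and 3.92 in F/F PBS, F/F Tat and ΔMye Tat, with a Tat difference of 0.29 (exact permutation p = 0.0238, adjusted 0.0336) that missed 0.05 with a pseudocount of 0.5 or 1, or without F/F PBS library 3, 4, 5 or 6 or F/F Tat library 8 or 10 (differences of 0.23 to 0.28, adjusted p of 0.0581 to 0.0672).

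Atf4 (chr15:80255184-80257541, plus strand) encodes the transcription factor at the centre of the integrated stress response. Its TPM were 465 to 491 in F/F PBS (median 485) and 352 to 381 in F/F Tat (median 359.6). Those of ΔMye Tat were 395, 405, 409, 407 and 427. The groups did not overlap, with ΔMye Tat between the others. The Tat difference was -0.41 as deposited (SE 0.03, limma adjusted p = 1.41e-11) and turned to 0.23 scaled (limma adjusted p = 4.90e-05), with -0.61 after quantile normalization. ΔMye Tat against F/F Tat gave 0.17 (SE 0.03, limma adjusted p = 3.46e-05) and scaled -0.05 (adjusted p = 0.336). Both directions thus depend on the scaling.

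Ddit3 (chr10:127290829-127293753, plus strand) encodes CHOP, a target of ATF4 that promotes cell death under lasting ER stress. Its TPM were 239 to 261 in F/F PBS (median 249) and 109 to 127 in F/F Tat (median 111). ΔMye Tat gave 117, 127, 128, 128 and 128. All Tat libraries of both genotypes lay below the lowest F/F PBS library, and the Tat groups overlapped through library 19. F/F Tat was at 45.6% of F/F PBS (log2 difference -1.13, SE 0.04, limma adjusted p = 6.10e-16, scaled difference -0.50). ΔMye Tat against F/F Tat gave 0.14 (SE 0.04, limma adjusted p = 0.00712), which missed the threshold without F/F Tat library 7, 8, 9 or 11 or ΔMye Tat library 20, 21, 22 or 23 (0.12 to 0.13), and scaled was -0.08 (adjusted p = 0.192).

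Ddit3 fell relative to its activator Atf4. The ratio of Ddit3 to Atf4 was 0.492 to 0.547 in F/F PBS (median 0.519), 0.285 to 0.338 in F/F Tat (median 0.311) and 0.297 to 0.314 in ΔMye Tat (median 0.312). The log2 ratio fell by 0.73 with Tat in F/F PMs (exact permutation p = 0.00216, adjusted 0.00433). Between ΔMye Tat and F/F Tat it differed by -0.03, with ranges that overlapped (exact permutation p = 0.452, adjusted 0.508), and without any one library by -0.06 to -0.01.

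Trib3 (chr2:152337422-152344032, minus strand) encodes a pseudokinase induced by ATF4 and CHOP that restrains ATF4 in turn. Its TPM were 87.8 to 95.6 in F/F PBS (median 92.0) and 35.8 to 37.7 in F/F Tat (median 37.2). For ΔMye Tat the values were 43.1, 41.1, 39.2, 43.5 and 36.4, all but library 23 above the F/F Tat range. F/F Tat was at 40.3% of F/F PBS (log2 difference -1.31, SE 0.04, limma adjusted p = 1.83e-16, scaled difference -0.67). ΔMye Tat against F/F Tat gave 0.13 (SE 0.04, limma adjusted p = 0.0125), which passed without library 23 (0.17, limma adjusted p = 0.000733) and was -0.09 scaled. The ratio of Trib3 to Ddit3 was 0.356 to 0.384 in F/F PBS (median 0.363), 0.292 to 0.344 in F/F Tat (median 0.327) and 0.285 to 0.367 in ΔMye Tat (median 0.323). With Tat in F/F PMs it differed by -0.17 on the log2 scale without overlap (exact permutation p = 0.00216, adjusted 0.00433), and between the Tat groups the difference was -0.0029 (exact permutation p = 0.965, adjusted 0.965).

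Ppp1r15a (chr7:45522916-45526268, minus strand) encodes GADD34, which directs dephosphorylation of eIF2α and so ends the integrated stress response. Its promoter holds a full cAMP response element (CRE, TGACGTCA), which reads alike on both strands and was present in 1.56% of RefSeq promoters and in no other member searched. It is shown because CREB and ATF family factors bind it, and whether it bears on the values of Ppp1r15a was not tested. The NF-κB consensus (in 7.28% of promoters) and the further stress response elements UPRE (0.568%) and CARE (0.762%) occurred in no member searched. Capitals mark the element, written along the minus strand of GRCm38.p6.
Ppp1r15a, -12 to -5, chr7:45526268-45526285, minus strand: tccggTGACGTCAgcaca
Its TPM were 51.3 to 63.2 in F/F PBS (median 56.0) and 63.8 to 84.3 in F/F Tat (median 74.1). In ΔMye Tat they were 78.6, 81.5, 65.9, 67.7 and 69.4. The Tat groups shared one range and both lay above F/F PBS. F/F Tat exceeded F/F PBS 1.31-fold (log2 difference 0.39, SE 0.07, limma adjusted p = 5.21e-05, scaled difference 1.02). ΔMye Tat against F/F Tat gave -0.03 (SE 0.08, limma adjusted p = 0.773), with a sign that changed when F/F Tat library 9 or 12 or ΔMye Tat library 21 was left out, and scaled -0.25 (adjusted p = 0.0126).

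The balance of GADD34 to PERK mRNA showed the widest shift of the 8 ratios computed. Ppp1r15a over Eif2ak3 was 6.76 to 9.38 in F/F PBS (median 8.21), 28.4 to 48.5 in F/F Tat (median 34.9) and 23.5 to 30.6 in ΔMye Tat (median 27.2). The log2 ratio rose by 2.10 with Tat in F/F PMs (exact permutation p = 0.00216, adjusted 0.00433). ΔMye Tat was lower than F/F Tat by -0.40 (exact permutation p = 0.0238, adjusted 0.0336), a call lost with a pseudocount of 1 (-0.30, adjusted p = 0.0554) or without F/F Tat library 8, 9, 10 or 12 or ΔMye Tat library 19, 21 or 22 (-0.42 to -0.32, adjusted p of 0.0529 to 0.0807). Over all 24 ratio tests, 18 had an adjusted p under 0.05.

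**Figure D2:**
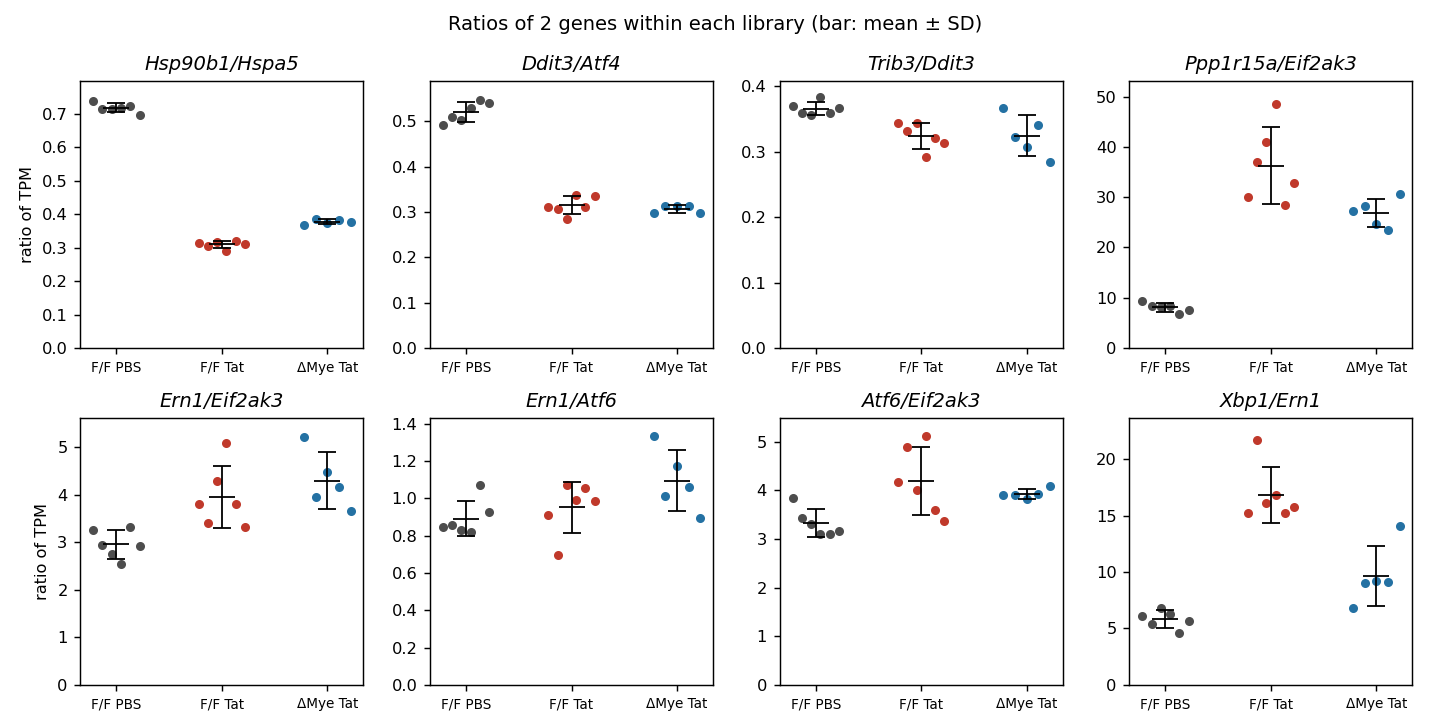
Ratios of the TPM of 2 members (y axis, no unit, from 0) within each library of F/F PBS (n = 6), F/F Tat (n = 6) and ΔMye Tat (n = 5); points are libraries and bars the mean ± SD. Hsp90b1/Hspa5 and Xbp1/Ern1 separate all 3 groups, while Ddit3/Atf4 separates F/F PBS from both Tat groups, whose medians are 0.311 and 0.312.

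**Figure D3:**
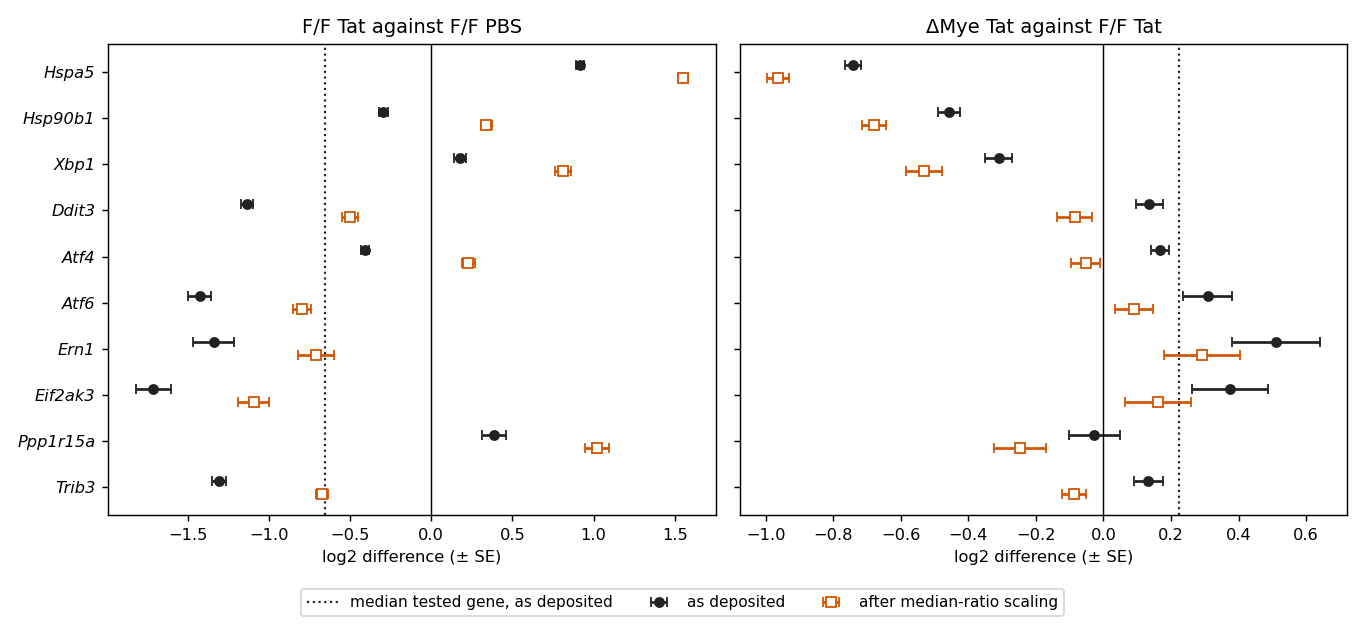
Log2 differences (x axis, ± SE) of the 10 members, with F/F Tat set against F/F PBS at left and ΔMye Tat against F/F Tat at right, as deposited (filled circles) and after median-ratio scaling (open squares); the dotted line is the median tested gene as deposited (-0.65 and 0.22). With Tat, Hsp90b1 and Atf4 change sign on scaling; in the genotype comparison Hspa5, Hsp90b1 and Xbp1 stay below 0 on both scales and Ddit3, Atf4 and Trib3 change sign.

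The wider pathway was read from lists, each beside the share of all tested genes called higher and lower, and shares near those of all genes say nothing particular of a list. Of 22 ER chaperones and foldases, 1 was higher with Tat in F/F PMs and 17 were lower (17% and 67.6% of all tested genes), with a median of -0.55 against -0.65 over all tested genes, and scaled the split was 10 higher and 10 lower (37.3% and 38%), with a median of 0.08. Manf, a secreted ER stress protein, averaged 99.2 ± 7.8 (SD, n = 6) TPM in F/F PBS, 114.9 ± 7.9 (SD, n = 6) in F/F Tat and 83.8 ± 1.5 (SD, n = 5) in ΔMye Tat, so it was highest in F/F Tat like Hspa5. It rose with Tat by 0.21 (limma adjusted p = 0.000566, scaled difference 0.85) and was lower in ΔMye Tat by -0.45 (limma adjusted p = 6.57e-07). Sdf2l1, a cofactor of BiP, fell with Tat from 74.7 to 17.7 TPM (log2 difference -2.08, limma adjusted p = 7.24e-15, scaled difference -1.44) and was 18.8 TPM in ΔMye Tat. Ero1lb, an oxidase of ER disulfide formation, fell from 23.7 to 7.27 TPM (-1.69, limma adjusted p = 2.30e-14) and was 10.1 TPM in ΔMye Tat. Between ΔMye Tat and F/F Tat, 3 of the 22 were higher and 10 lower as deposited (38.8% and 8.87% of all tested genes), and 1 and 16 scaled (15.9% and 19.4%).

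The ERSE genes were examined as a group chosen after their values were seen, so they received no test as a group. The limma values of single genes among them are given as description only. The motif's 35 genes included 27 in the table and 12 tested, 10 of the 35 being members or genes of the pathway lists. With Tat 2 were higher (Hspa5 and Syvn1) and 9 lower as deposited (17% and 67.6% of all tested genes), and 6 higher and 3 lower scaled (37.3% and 38%). In ΔMye Tat against F/F Tat, 3 were higher and 6 lower (38.8% and 8.87% of all tested genes), and scaled 1 higher (Ero1lb) and 7 lower (15.9% and 19.4%). Pdia6, a disulfide isomerase, averaged 138, 134 and 99.6 TPM in F/F PBS, F/F Tat and ΔMye Tat, and was lower in ΔMye Tat than in F/F Tat by -0.43 (limma adjusted p = 2.24e-10, scaled difference -0.65). Dnajc3, an inhibitor of PERK and BiP cofactor, averaged 25.2, 10.8 and 12.9 TPM and was higher in ΔMye Tat by 0.25 as deposited (limma adjusted p = 0.000417) and by 0.03 scaled (adjusted p = 0.563). Genes with the same motif, among them Hspa5 and Dnajc3, thus differed in direction.

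**Figure D4:**
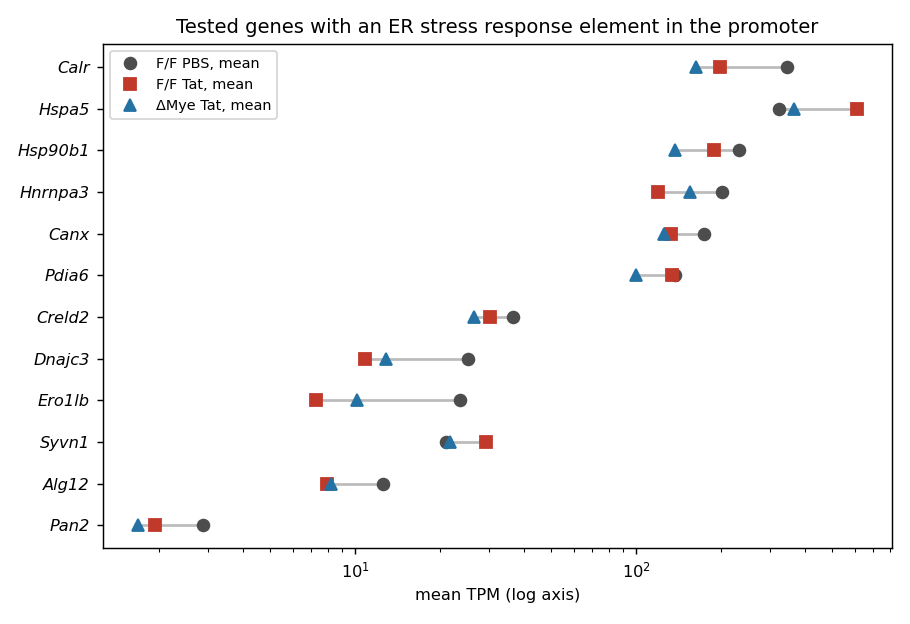
Mean TPM (log axis) of the 12 tested genes with an ERSE in the 250 bases before the start site, in F/F PBS (n = 6, circles), F/F Tat (n = 6, squares) and ΔMye Tat (n = 5, triangles); grey lines span the means of a gene. Hspa5 and Syvn1 are highest in F/F Tat, and the other 10 genes have their highest mean in F/F PBS.

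In ER-associated degradation, which returns misfolded proteins to the cytosol, 3 of 15 tested genes were higher with Tat and 9 lower (17% and 67.6% of all tested genes), and scaled 6 and 3 (37.3% and 38%). Syvn1, the ubiquitin ligase HRD1, averaged 21.1 ± 1.5 (SD, n = 6) TPM in F/F PBS, 29.2 ± 1.3 (SD, n = 6) in F/F Tat and 21.7 ± 3.1 (SD, n = 5) in ΔMye Tat. It rose by 0.46 with Tat (limma adjusted p = 1.33e-05, scaled difference 1.10) and was lower in ΔMye Tat by -0.44 (limma adjusted p = 0.00014, scaled difference -0.66). Faf2 rose by 0.51 (limma adjusted p = 3.42e-07), Derl1 fell by 0.89 (limma adjusted p = 1.23e-16), and Herpud1, a classic unfolded protein response target, fell by 1.72 (limma adjusted p = 4.04e-16) from 42.3 to 12.8 TPM and was 21.3 TPM in ΔMye Tat. In ΔMye Tat against F/F Tat 8 of the 15 were higher and 2 lower (38.8% and 8.87% of all tested genes), and scaled 2 and 4 (15.9% and 19.4%).

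Genes of ER translocation and signal peptidase gave 2 higher and 11 lower of 17 with Tat (17% and 67.6% of all tested genes), and 9 and 2 scaled (37.3% and 38%). Srpr, the receptor of the signal recognition particle, rose from 69.3 to 130.9 TPM with Tat (0.92, limma adjusted p = 3.30e-16) and was 97.8 TPM in ΔMye Tat, lower by -0.42 (limma adjusted p = 1.63e-09, scaled difference -0.64). Ssr3 rose by 0.21 (limma adjusted p = 1.15e-05), while Sec11c fell by 2.01 (limma adjusted p = 5.40e-17) and Spcs3 by 0.87 (limma adjusted p = 1.40e-13). In ΔMye Tat against F/F Tat 3 of the 17 were higher and 5 lower (38.8% and 8.87% of all tested genes), and scaled 1 and 8 (15.9% and 19.4%).

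Of the ATF4 target list, 7 of 20 tested genes were higher with Tat and 12 lower (17% and 67.6% of all tested genes), with a median of -0.41, and scaled 10 and 7 (37.3% and 38%), with a median of 0.22. Slc7a11, the cystine transporter, rose from 23.01 to 103.5 TPM (2.17, limma adjusted p = 2.74e-16) and was 125 TPM in ΔMye Tat, and Ddit4, an inhibitor of mTORC1, rose from 4.24 to 13.8 TPM (1.69, limma adjusted p = 3.97e-12) and was 6.04 TPM in ΔMye Tat. Against F/F Tat these genes went opposite ways as deposited in ΔMye Tat, by 0.26 for Slc7a11 (limma adjusted p = 0.00465, scaled difference 0.04, adjusted p = 0.565) and by -1.18 for Ddit4 (limma adjusted p = 1.72e-08, scaled difference -1.40). Pck2 fell by 1.73 (limma adjusted p = 6.32e-11) and Eif4ebp1, a brake on cap-dependent translation, by 1.12 (limma adjusted p = 3.22e-12). The genotype comparison gave 13 higher and 3 lower of the 20 (38.8% and 8.87% of all tested genes), and scaled 6 and 4 (15.9% and 19.4%).

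Cytosolic aminoacyl-tRNA synthetases, many of them ATF4 targets, gave 3 higher and 15 lower of 20 with Tat (17% and 67.6% of all tested genes), and 8 and 9 scaled (37.3% and 38%). Wars, also an interferon-induced gene, rose from 111 to 317 TPM (1.51, limma adjusted p = 1.12e-17) and was 221 TPM in ΔMye Tat, and Kars rose by 0.82 (limma adjusted p = 4.49e-15). Iars fell by 1.32 (limma adjusted p = 3.75e-14) and Farsb by 1.11 (limma adjusted p = 2.13e-13). ΔMye Tat against F/F Tat gave 11 higher and 3 lower (38.8% and 8.87% of all tested genes), and scaled 7 and 7 (15.9% and 19.4%).

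Among eIF2 kinases, eIF2 and eIF2B, 2 of 13 were higher with Tat and 8 lower (17% and 67.6% of all tested genes), and scaled 7 and 5 (37.3% and 38%). The kinases split. Eif2ak2 (PKR, activated by double-stranded RNA and induced by interferon) rose from 23.2 to 69.3 TPM (1.57, limma adjusted p = 2.63e-15) and was 52.4 TPM in ΔMye Tat, lower by -0.40 (limma adjusted p = 1.72e-05, scaled difference -0.62). Eif2ak4 (GCN2, activated by amino acid shortage) fell from 5.55 to 1.93 TPM (-1.48, limma adjusted p = 5.62e-10) like Eif2ak3. Ppp1r15b, the constitutive counterpart of GADD34 in dephosphorylating eIF2α, rose from 42.7 to 78.6 TPM (0.88, limma adjusted p = 1.96e-08) and averaged 77.9 TPM in ΔMye Tat, so that both phosphatase subunits were higher with Tat. Eif2b4 fell by 1.32 (limma adjusted p = 2.50e-11). The genotype comparison gave 8 higher and 1 lower of the 13 (38.8% and 8.87% of all tested genes), and scaled 2 and 2 (15.9% and 19.4%).

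Of 8 tested genes of ATF6 processing and the CREB3 family, 7 were lower with Tat and 1 passed in neither direction, all 8 differences being negative (67.6% of all tested genes were lower), and scaled 2 were higher and 1 lower (37.3% and 38%). Creb3l2 fell by 1.29 (limma adjusted p = 3.07e-07) and Creb3l4 by 0.81 (limma adjusted p = 0.000831, scaled difference -0.23, adjusted p = 0.263), both from means under 3 TPM. ΔMye Tat against F/F Tat gave 3 higher (38.8% of all tested genes), and scaled 1 (15.9%).

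For partners of IRE1α and mRNAs it is known to cut, 3 of 9 were higher with Tat and 5 lower (17% and 67.6% of all tested genes), and scaled 5 and 2 (37.3% and 38%). Traf2, which links IRE1α to JNK and NF-κB signalling, rose from 18.2 to 33.6 TPM (0.88, limma adjusted p = 2.81e-12) and was 31.8 TPM in ΔMye Tat. The substrates went both ways, since Bloc1s1 fell by 1.11 (limma adjusted p = 7.36e-12) and Hgsnat by 1.58 (limma adjusted p = 2.08e-14), while Pdgfrb rose by 2.87 (limma adjusted p = 2.11e-10) from a mean of 0.207 to 2.03 TPM. The genotype comparison gave 3 higher and 3 lower (38.8% and 8.87% of all tested genes), and scaled 1 and 4 (15.9% and 19.4%).

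Of 5 tested cell death genes linked to ER stress, 1 was higher with Tat and 4 lower (17% and 67.6% of all tested genes), and scaled 1 and 2 (37.3% and 38%). Bbc3 (PUMA) fell from 22.8 to 5.80 TPM (-1.96, limma adjusted p = 5.90e-10) and Bcl2l11 (BIM) from 13.0 to 6.46 TPM (-0.996, limma adjusted p = 1.36e-08), both known as targets of CHOP. Bak1 rose from 59.3 to 98.1 TPM (0.74, limma adjusted p = 1.38e-06). In the genotype comparison 2 were higher (38.8% of all tested genes), and scaled 1 (15.9%).

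**Figure D5:**
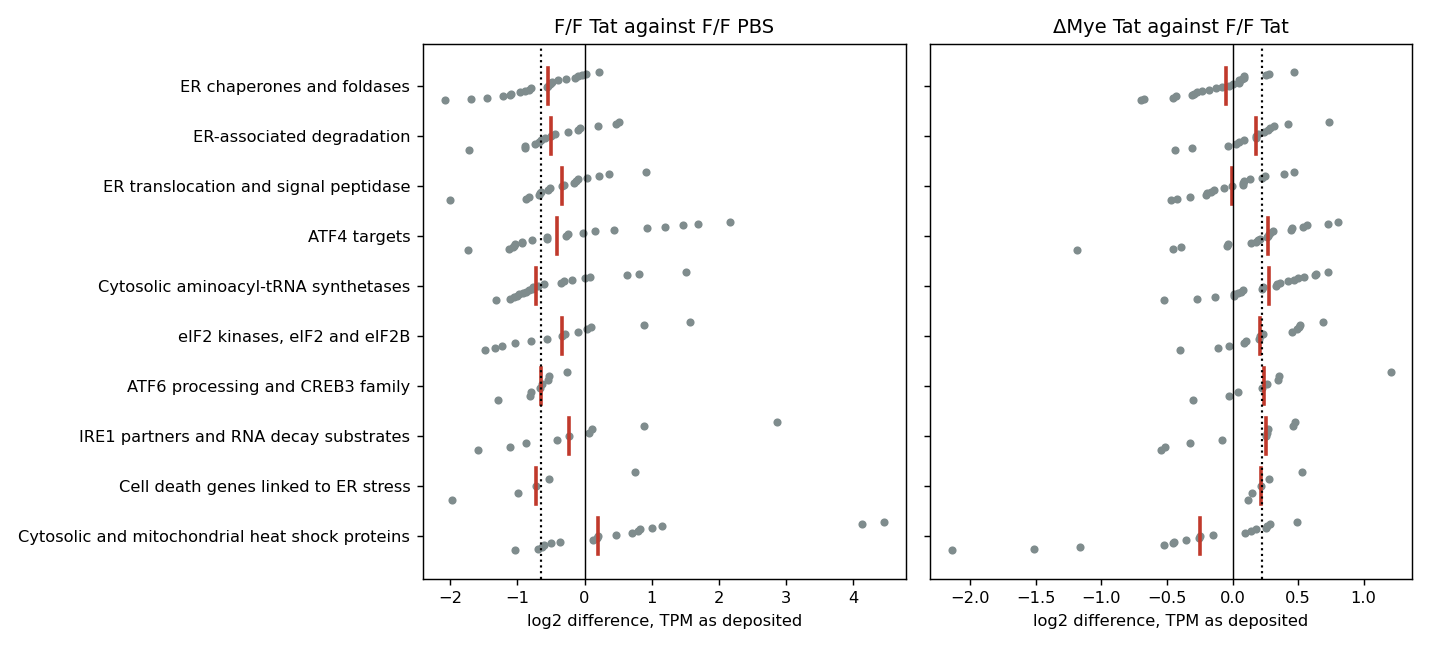
Log2 differences (x axis, TPM as deposited) of the tested genes of 10 pathway lists, with F/F Tat set against F/F PBS at left and ΔMye Tat against F/F Tat at right; points are genes, red bars the list medians and the dotted line the median of all tested genes (-0.65 and 0.22). List medians run from -0.73 (aminoacyl-tRNA synthetases) to 0.20 (heat shock proteins) at left and from -0.25 (heat shock proteins) to 0.28 (aminoacyl-tRNA synthetases) at right; after median-ratio scaling the former become -0.09 and 0.84 and the latter -0.47 and 0.06.

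The genes whose profiles were most like each member's were named by the smallest root mean square difference between log2 profiles, each centred on its own mean over 17 libraries, among 7507 genes. For Hspa5 these were Phc2 (0.08) and Tbrg1 (0.09), with Phc2 at 48.2, 88.6 and 57.7 TPM in F/F PBS, F/F Tat and ΔMye Tat. Hsp90b1 was most like Fcna (0.09) and Cfp (0.09), and Xbp1 most like Mpp1 (0.06) and Snx2 (0.07). The closest likeness was Atf4 with Etfa (0.04) and Plin2 (0.04). Ddit3 came nearest to Evi2a (0.07) and Tmem242 (0.08), and Trib3 to Gaa (0.06) and Psap (0.07). Of the sensors, Atf6 was nearest to Akt1 (0.08) and Slc25a36 (0.08), Ern1 to Ddi2 (0.11) and Kif13b (0.14), and Eif2ak3 to Mia2 (0.12) and Ctdsp2 (0.12). Ppp1r15a was nearest to Sqstm1 (0.11) and Surf4 (0.12).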

How the data were processed

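RNA-Seq of 17 libraries of peritoneal macrophages was analysed, grouped by the sample labels. The authors ran Salmon against Ensembl transcripts of GRCm38 (mm10 in the submitters' processing notes; Salmon version not given in the sources used here) and deposited TPM per gene symbol, with no stated scaling of libraries to each other. The authors' own comparison used edgeR on counts, which were not used here. Of 21683 rows, 4 repeat a symbol and 26 carry a symbol turned into a date. No 2 libraries held identical values. TPM hold no read counts, so depth is unknown and precision rests on the spread between libraries.

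Genes at 1 TPM or more in 5 or more libraries (10451) entered limma 3.58.1 (R 4.3.3) as log2(TPM + 0.1), a scale that understates changes of low genes. A single linear model held all 3 groups (14 residual degrees of freedom, moderated with a mean-variance trend), and p were adjusted over all tested genes (Benjamini-Hochberg) and called under 0.01, with a fold of 3 where stated. The fit was tested on simulated data. Ratios of TPM + 0.1 were compared by two-sided exact permutation, with p adjusted over 24 tests, and printed ratio levels carry no pseudocount. Median-ratio scaling used the geometric mean library. Named genes were the members, at most 2 highest and 2 lowest genes of each pathway list called with Tat and of the same sign when scaled, and the 2 genes most like each member, with a mean of at least 5 TPM. Pdia6 and Dnajc3 were named after their values were seen, as genes with the promoter motif. Members, lists and tests were chosen with earlier results of these data known. Promoters are from RefSeq (GRCm38.p6) and gene coordinates from GENCODE on GRCm38. An allele that all groups share and 1 marker list are not reported here. Alternatives were pseudocounts of 0.5 and 1, no filter, 5 TPM, both scalings, a Wilcoxon test, a fit of 2 groups only, robust moderation with library weights, and leaving out single libraries. Scripts ran in Python 3.11.15 with scipy 1.17.1, pandas 2.3.3, numpy 2.4.6 and, for plots, matplotlib 3.10.9.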

Additional observations from a re-analysis of the deposited data

Results flagged for a closer look

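In 3 of 30 combinations of member and group, the lowest library stood apart from the others by Dixon's criterion, where chance gives about 1.5. Hspa5 was 357.363 TPM in ΔMye Tat library 23, with the nearest library at 365.02 TPM. Ddit3 was 117.483 TPM in ΔMye Tat library 19, with the nearest at 127.153 TPM. Ern1 was 6.43167 TPM in F/F Tat library 8, with the nearest at 8.22496 TPM.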

How the results depend on the processing

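With median-ratio scaling 5 members were higher with Tat in F/F PMs in place of 3, and Hsp90b1 (0.34) and Atf4 (0.23) reversed; in ΔMye Tat against F/F Tat 0 were higher in place of 5, and Ddit3 (-0.0847), Atf4 (-0.0525) and Trib3 (-0.0873) reversed; in ΔMye Tat against F/F PBS 4 were higher in place of 2, and Xbp1 (0.28) and Atf4 (0.18) reversed. Quantile normalization gave 1 higher in ΔMye Tat against F/F Tat and 1 against F/F PBS, and reversed Trib3 in the former (-0.0048) and Hspa5 in the latter (-0.0948). The member lower past 3-fold with Tat became 0 under both scalings and pseudocounts of 0.5 and 1. In ΔMye Tat against F/F Tat the 5 higher members became 0 with the Wilcoxon test, 2 with no filter and 3 with only the compared groups, and the 3 lower became 0 with the Wilcoxon test. The Wilcoxon test could call no member in that comparison at an adjusted p under 0.01, even where groups did not overlap. In that comparison the log2 ratio of Atf6 to Eif2ak3 became 0.0099 with a pseudocount of 1. Leaving out each library gave 3 to 5 members higher in that comparison, -0.0695 to 0.012 for Ppp1r15a and -0.0486 to 0.0426 for the log2 ratio of Trib3 to Ddit3. Beyond the causes these settings carry by construction, the cause was not tested. No paired analysis was possible because the labels do not name the mouse of a library. Across the alternatives that leave out no library, 236 differences of single members kept their direction and side of the threshold and 24 missed it. A further 9 reversed direction and 1 newly passed the threshold. Depth could not be assessed from TPM.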

Other observations

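Heat shock proteins of the cytosol and mitochondria went both ways. With Tat in F/F PMs, 8 of 17 were higher and 6 lower, against 17% and 67.6% of all tested genes (median 0.20, against -0.65), and scaled 12 and 1, against 37.3% and 38%. Hspa1a and Hspa1b, near-identical copies of the inducible Hsp70 whose reads may be split between them, averaged 2.79 ± 0.35 and 2.19 ± 0.32 TPM in F/F PBS (SD, n = 6), 62.8 ± 3.4 and 39.6 ± 1.8 in F/F Tat (SD, n = 6) and 14.2 ± 1.3 and 13.9 ± 2.2 in ΔMye Tat (SD, n = 5). Their log2 differences were 4.45 and 4.13 with Tat (limma adjusted p = 1.25e-20 and 3.63e-18) and -2.14 and -1.52 between ΔMye Tat and F/F Tat (limma adjusted p = 8.90e-14 and 7.35e-10). Hspe1, a mitochondrial co-chaperone, fell with Tat by 1.03 (limma adjusted p = 8.86e-14), and Hsf1, the factor that drives Hsp70 genes, fell by 0.68 as deposited (limma adjusted p = 7.16e-09) with a scaled difference of -0.05 (adjusted p = 0.455). Between ΔMye Tat and F/F Tat 5 of the 17 were higher and 8 lower, against 38.8% and 8.87% of all tested genes, and scaled 1 and 10, against 15.9% and 19.4%.

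Markers of other cells also differed between groups. S100a8 averaged 53.8, 68.6 and 91.4 TPM in F/F PBS, F/F Tat and ΔMye Tat, while Elane was listed at 0 in all libraries. S100a9 ran in the opposite order (1.15, 0.842 and 0.716 TPM). Ly6g (0.0338, 0.274 and 0.351 TPM) and Mpo (0, 0.0143 and 0.0172 TPM) had the order of S100a8, at low values. The 5 neutrophil markers, nearly all S100a8, summed to 50.5 to 60.0, 62.7 to 76.1 and 85.9 to 101.7 TPM. The 4 dendritic cell markers, mostly Ccr7, summed to 6.73 to 14.9, 41.3 to 46.1 and 22.4 to 26.8 TPM, the same order of groups as Hspa5. The means of Zbtb46 (0.467, 0.975 and 0.792 TPM) and Xcr1 (0.0702, 0.243 and 0.156 TPM) had that order too. Flt3 did not and was highest in F/F PBS (0.526, 0.220 and 0.132 TPM). For NK cell markers the sums were 1.99 to 6.81, 2.63 to 4.39 and 4.93 to 7.03 TPM, and for mesothelial markers 2.61 to 4.29, 1.81 to 3.35 and 0.897 to 1.70 TPM. Eosinophil and mast cell markers gave 7.34 to 10.1, 6.85 to 9.07 and 5.74 to 7.92 TPM, and the T and innate lymphoid list, nearly all Il7r, 148 to 173, 144 to 159 and 153 to 168 TPM. The other genes of that list were low, but each was lowest in F/F Tat and highest in ΔMye Tat. They were Cd3d (0.942, 0.413 and 1.24 TPM), Cd3e (1.46, 0.724 and 1.79), Cd3g (1.57, 0.515 and 1.98), Cd4 (0.407, 0.285 and 1.00) and Cd8a (0.924, 0.540 and 1.77). The part of all these cells in the members' values was not tested.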
